A study of Arabidopsis thaliana with 36 samples.

Results

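HYH and BLUE-LIGHT INHIBITOR OF CRYPTOCHROMES 2 (BIC2, locus AT3G44450) are 2 light-signalling genes followed here through 1 day and across ribosome-loading fractions of CCA1-ox Arabidopsis plants. They were found as the probe sets that name HYH or AT3G44450 alone in the annotation of the array. That gave 1 probe set for each gene, so 2 genes of the 13356 that the array names alone, and no probe set that names either gene together with another. HYH is locus AT3G17609, and both genes lie on chromosome 3. Both were selected on their levels, HYH for the difference between 6am and 12am and BIC2 for that between 12pm or the light hours and the dark, so the levels over the day are described below without a test. The distribution between fractions was not used to choose the genes and was tested.

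All plants carried the same genotype, CCA1-ox in the Columbia background, which overexpresses the clock transcription factor CIRCADIAN CLOCK ASSOCIATED 1. The promoter that drives the transgene is not given in the sources used here, wild-type plants are not analysed here, and nothing below separates the transgene from the daily cycle. Plants grew on agar with sucrose at 1%, in days of 16 h of light that began at 6am, followed by 8 h of darkness. Aerial parts were harvested at an age of 10 days, at 6am, 12pm, 6pm and 12am (0, 6, 12 and 18 h after lights on). At each time, RNA of 3 replicate extracts was split on sucrose gradients into large polysomal, small polysomal and non-polysomal RNA. Each fraction was hybridised to its own Affymetrix array, so 36 arrays form 12 groups of 3.

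HYH encodes a bZIP transcription factor and is the closest relative of HY5, which promotes seedling development in light. HY5 and HYH bind promoters of light-regulated genes, and in darkness both proteins are targeted for degradation through the COP1 ubiquitin ligase. Cryptochromes are the blue-light receptors that restrain COP1 in light. BIC proteins bind activated cryptochromes and keep them from forming the active oligomers, so BIC2 acts as a brake on the same pathway.

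Values are log2 expression values, 1 unit being a 2-fold difference. Arrays of a group correlated with r between 0.961 and 0.996, and no 2 arrays held the same values. Of the markers of green tissue 4 of 5 were named in the annotation used, and they lay between 11.7 and 14.6 on all arrays. All 4 had their lowest mean at 6am, as in SBPASE with 12.1 at 6am, 13.2 at 12pm, 13.6 at 6pm and 13.4 at 12am. Of 5 root markers only PYK10 was named, and it lay between 10.4 and 12.5, with a mean of 11.0 at 6am, 11.5 at 12pm, 12.2 at 6pm and 11.9 at 12am. The part of these markers in the results was not tested. The other 4 root markers were not analysed here. In bulk tissue, fewer cells of a type and less RNA per cell cannot be told apart.

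HYH was high at 3 of the 4 times and low only at 12am. On large polysomes HYH was at 10.33, 9.85 and 9.52 at 6am, at 9.98, 10.22 and 10.39 at 12pm, at 10.29, 9.94 and 9.96 at 6pm, and at 6.75, 7.42 and 6.08 at 12am. In the small polysomal fraction it was at 9.99, 9.96 and 9.73 at 6am, at 9.86, 10.31 and 10.50 at 12pm, at 10.04, 9.99 and 10.09 at 6pm, and at 7.06, 7.59 and 6.56 at 12am. In the non-polysomal fraction it was at 10.72, 10.40 and 10.00 at 6am, at 10.84, 10.37 and 10.06 at 12pm, at 10.54, 10.17 and 10.11 at 6pm, and at 6.58, 7.69 and 5.79 at 12am. In each fraction all 3 arrays of 12am lay below all 9 arrays of the other times, while the values of 6am, 12pm and 6pm overlapped. HYH was selected on its levels, and the share of all probe sets with such a separation of times, here and below, was not determined.

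BIC2 had another course: it was low at both 6am and 12am and high at 12pm and 6pm. On large polysomes BIC2 was at 3.49, 3.29 and 3.50 at 6am, at 9.30, 9.31 and 9.67 at 12pm, at 9.29, 8.84 and 8.78 at 6pm, and at 5.36, 5.17 and 3.77 at 12am. In the small polysomal fraction it was at 3.05, 2.57 and 3.50 at 6am, at 8.91, 8.93 and 9.47 at 12pm, at 8.59, 8.26 and 8.21 at 6pm, and at 3.55, 3.72 and 4.03 at 12am. In the non-polysomal fraction it was at 3.50, 2.72 and 2.62 at 6am, at 8.80, 8.32 and 7.93 at 12pm, at 7.97, 7.38 and 7.29 at 6pm, and at 3.83, 4.35 and 2.62 at 12am. In each fraction all arrays of 12pm and 6pm lay above all arrays of 6am and 12am, a separation in the levels on which BIC2 was selected. At 6am BIC2 was close to the lowest values of the table, which began at 2.15: the value 3.50 was identical on 3 of those arrays, 1 in each fraction, and 2.62 was identical on 2 non-polysomal arrays, 1 of 6am and 1 of 12am. The size of a BIC2 difference that involves 6am or 12am is therefore uncertain, and so is the direction of one between those 2 times in the non-polysomal fraction, where they overlap.

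**Figure D1:**
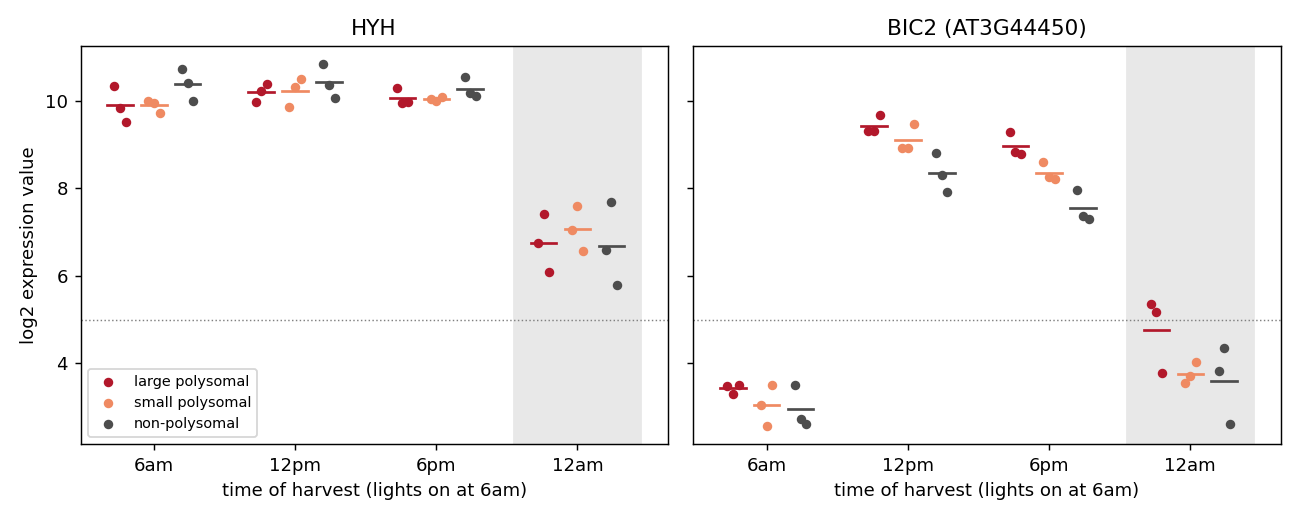
Log2 expression value of HYH (left) and BIC2 (right) on each of the 36 arrays, by time of harvest and fraction, with points for replicates and short lines for group means. The grey band marks 12am, in the dark phase, and the dotted line the filter value of 5. HYH is low only at 12am, whereas BIC2 is low at both 6am and 12am.

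Taking the mean of the 3 fractions of an extract as the level of a transcript, HYH was at 10.06 ± 0.30 at 6am, 10.28 ± 0.05 at 12pm, 10.13 ± 0.14 at 6pm and 6.84 ± 0.71 at 12am (SD, n = 3 extracts). From high to low the order was 12pm, 6pm, 6am and 12am, and only 12am was separated from its neighbour by more than the spread. The 12am extracts also spread more than those of other times, with levels of 6.80, 7.56 and 6.15 in replicates 1, 2 and 3. Replicate 2 was the highest and replicate 3 the lowest in every fraction at that time, though the fractions of an extract are not independent. The difference between the highest and the lowest group mean was 10.9-fold on large polysomes, 8.89-fold in the small polysomal and 13.3-fold in the non-polysomal fraction.

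The level of BIC2 was 3.14 ± 0.25 at 6am, 8.96 ± 0.09 at 12pm, 8.29 ± 0.28 at 6pm and 4.04 ± 0.50 at 12am (SD, n = 3 extracts). The order from high to low was 12pm, 6pm, 12am and 6am, and no neighbours in it overlapped. Within the fractions the same held on large and on small polysomes, whereas in the non-polysomal fraction 12pm overlapped with 6pm and 12am with 6am. The difference between the highest and the lowest group mean was 64.0-fold on large polysomes, 66.9-fold in the small polysomal and 42.2-fold in the non-polysomal fraction, where the lowest means of 3.43, 3.04 and 2.95 were all those of 6am.

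Set side by side, the steps of the day differed for the 2 genes. At 6am, relative to 12am, HYH was higher by 3.15 on large polysomes, 2.83 in the small polysomal and 3.69 in the non-polysomal fraction, whereas BIC2 was lower by the log2 differences -1.34, -0.73 and -0.65. At 12pm, relative to 6am, BIC2 was higher by 6.00, 6.06 and 5.40 in the same order of fractions, while the values of HYH overlapped with differences of 0.30, 0.33 and 0.05. At 12am, relative to 6pm, both were lower in every fraction, HYH with -3.31, -2.97 and -3.59 and BIC2 with -4.20, -4.59 and -3.95. At 6pm, relative to 12pm, BIC2 was lower with -0.46, -0.75 and -0.80, with no overlap on large or small polysomes, and HYH overlapped in all fractions with -0.13, -0.18 and -0.15. Consecutive steps share the arrays of the time between them. The 6am minus 12am difference of the BIC2 level was -0.91 with all replicates, -0.58 without replicate 2 and -1.22 without replicate 3.

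Over the 12 group means, HYH and BIC2 correlated with Pearson's r = 0.49 and Spearman's rho = 0.30, and of the other named genes 668 were more like HYH and 1635 more like BIC2 than the 2 genes were like each other. These points share arrays and the mean difference between fractions, so r is a description only. The 5 named genes most like BIC2, of 6803, had r between 0.989 and 0.994 and were AT4G29070, AT1G10640, AT3G57020, BETA-VPE (beta vacuolar processing enzyme, a protease) and AT3G10840. Their levels were lower than those of 12pm and 6pm at both 6am and 12am, as in AT4G29070 with 7.41, 9.37, 9.21 and 7.68 at 6am, 12pm, 6pm and 12am, and in AT1G10640 with 3.73, 8.75, 8.25 and 4.05. All 5 were also higher on large polysomes than in the non-polysomal fraction (limma, adjusted p between 7.15e-08 and 0.00398), with log2 differences between 0.49 and 0.62, where 42.3% of the 12635 probe sets tested were called higher (adjusted p under 0.05) and 37.8% lower. The fraction enters the 12 means by which the 5 genes were found, so nothing is read from this count.

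The 5 named genes most like HYH fitted it less closely, with r between 0.908 and 0.916. They were AT1G75900, AT5G45430, OCT5 (organic cation/carnitine transporter 5), AT2G41250 and AT1G62030. All were lowest at 12am, but by less than HYH: OCT5 was at 5.99, 6.16, 6.74 and 4.40 at 6am, 12pm, 6pm and 12am, and AT2G41250 at 7.77, 9.05, 8.93 and 6.08. None of the 5 was called for large polysomal against non-polysomal RNA (limma, adjusted p between 0.0582 and 0.351). Over all probe sets 42.3% were called higher and 37.8% lower, and again the fraction entered the choice, so nothing is read from this count.

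**Figure D2:**
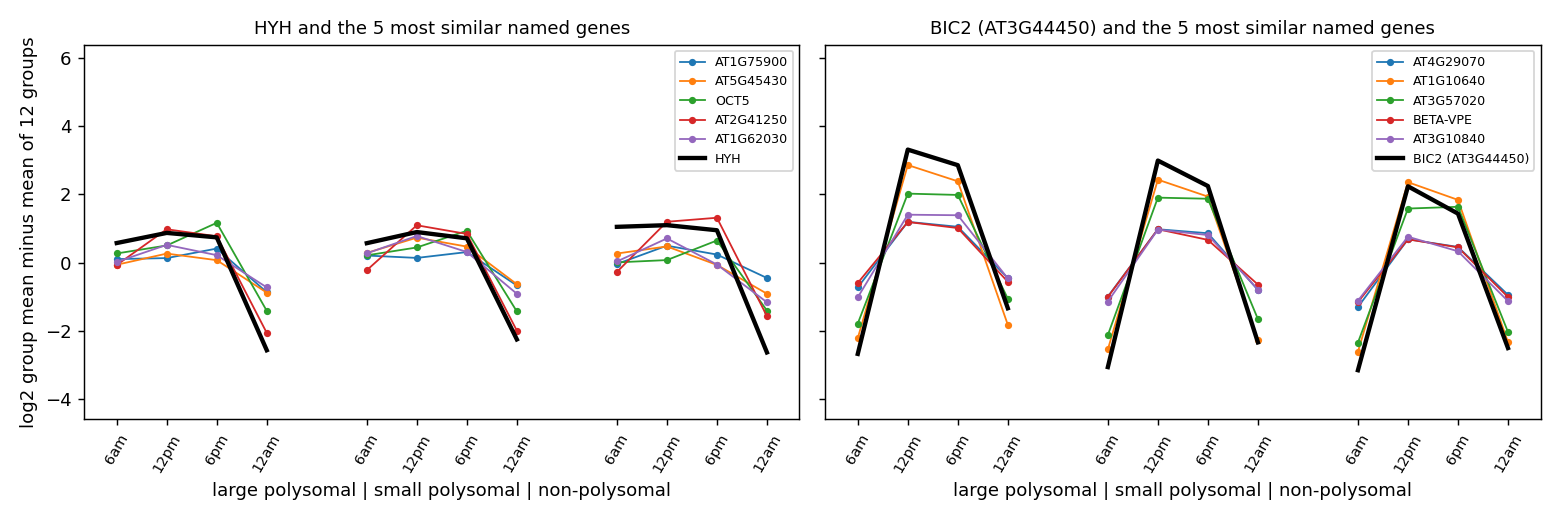
Log2 group means of HYH (left, black) and BIC2 (right, black) and of the 5 named genes with the highest Pearson correlation to each, as the difference from each gene's mean over the 12 groups, with the 4 times repeated for the large polysomal, small polysomal and non-polysomal fraction. The genes found for BIC2 have r between 0.989 and 0.994 and those found for HYH between 0.908 and 0.916.

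The next comparison asked how each transcript was spread over the ribosome-loading fractions. Loading was defined as the log2 value on large polysomes minus that in non-polysomal RNA, and tests were made with limma over the 12635 probe sets that reached a log2 value of 5 on at least 3 arrays, both genes among them. A difference was called at an adjusted p under 0.05. BIC2 was higher on large polysomes: averaged over the 4 times the log2 difference was 1.04 ± 0.18 (SE, 12 arrays per fraction), or 2.05-fold (limma, adjusted p = 4.38e-06), with a positive difference in 11 of 12 extracts. In the same comparison 42.3% of all probe sets were called higher and 37.8% lower, so a call by itself does not set BIC2 apart. Its loading was above that of 84.7% of all probe sets, whose median was 0.05. Between the 2 polysomal fractions BIC2 was higher on large polysomes by 0.58 ± 0.18 (adjusted p = 0.00665, positive in 10 of 12 extracts), where 27.8% of probe sets were called higher. The small polysomal fraction was above the non-polysomal by 0.46 ± 0.18 (adjusted p = 0.024, positive in 8 of 12 extracts), where 36.7% were called higher. These means, counts and the rank include 6am and 12am, when BIC2 reached 5 on only 2 arrays, both large polysomal of 12am. In replicate 3 of 6am the positive loading of 0.88 was the repeated value 3.50 minus the repeated value 2.62. The large minus small polysomal difference of that extract was 0. The BIC2 differences at those times are therefore uncertain, and the counts rest in part on them.

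The comparison of large with non-polysomal RNA was called without each array and each replicate number, between 0.90 and 1.16. The comparison of large with small polysomal RNA lost its call when replicate 1 (0.45, adjusted p = 0.0993) or replicate 2 (0.48, adjusted p = 0.125) was left out. That of small polysomal with non-polysomal RNA was not called without replicate 3 (0.09, adjusted p = 0.593), without replicate 3 of the 6am small polysomal (0.40), the 12pm non-polysomal (0.40) or the 12am non-polysomal group (0.33), nor with quantile normalization, cyclic loess or median centring. With the 12pm and 6pm arrays alone, where BIC2 lies well above the lower end of the scale, the difference was 1.25 for large against non-polysomal, 0.47 for large against small polysomal and 0.78 for small polysomal against non-polysomal RNA, and all were called (limma, adjusted p = 2.26e-06, 0.0296 and 0.000613), where 39.2%, 22% and 32.3% of probe sets were called higher. This alternative was chosen after the data were seen.

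For HYH the differences between fractions were small, and whether one was called depended on the fit. Its loading averaged over the 4 times was -0.21 ± 0.17 (SE), negative in 9 of 12 extracts, and was not called (limma, adjusted p = 0.244). The fractions of an extract deviated together, and with the 12 extracts as fixed blocks the same difference had an SE of 0.10 and was called lower (adjusted p = 0.0428), as were 40% of all probe sets in that fit. With the extracts as a random block it was not called (adjusted p = 0.0995). HYH differed by -0.13 ± 0.17 between the small polysomal and the non-polysomal fraction and by -0.08 ± 0.17 between the large and the small polysomal fraction, and neither was called (adjusted p = 0.485 and 0.713). Its loading lay above that of 38.5% of all probe sets.

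The median of an array lay between 4.87 and 5.20 in all fractions, so a direction is read against the other transcripts of a fraction. When arrays were instead scaled to the same signal of the 27 poly(A) spike-in probe sets, the median loading of all probe sets was 2.38 and 97.5% were called higher on large polysomes. On that scale BIC2 was at 3.37 and HYH at 2.12, above and below that median, and both were called higher (adjusted p = 1.08e-19 and 1.02e-11). This scaling shifts all probe sets of an array alike, so ranks in loading stay as they were. The labels do not say in what amount the spike-in RNA was added to each fraction.

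**Figure D3:**
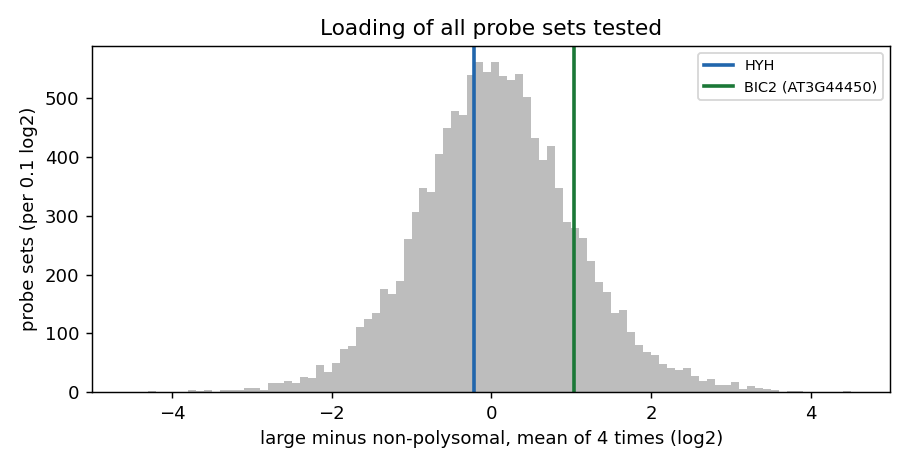
Distribution of loading (large polysomal minus non-polysomal log2 value, mean of the 4 times) over the 12635 probe sets tested (grey bars, count per bin of 0.1), with vertical lines at HYH (-0.21) and BIC2 (1.04). BIC2 lies above 84.7% of the probe sets and HYH above 38.5%. The BIC2 mean includes 6am and 12am, when most of its arrays were below the filter value of 5.

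Time by time, the loading of BIC2 in extracts 1, 2 and 3 was -0.01, 0.57 and 0.88 at 6am, 0.50, 0.99 and 1.74 at 12pm, 1.32, 1.46 and 1.49 at 6pm, and 1.53, 0.83 and 1.15 at 12am. Only the first extract of 6am was below 0, and the extracts of 6pm lay closest together. The means were 0.48 ± 0.45 at 6am, 1.08 ± 0.63 at 12pm, 1.42 ± 0.09 at 6pm and 1.17 ± 0.35 at 12am (SD, n = 3 extracts). At 12pm and 6pm every large polysomal array was above every non-polysomal array, whereas the fractions overlapped at 6am and 12am. The share of all probe sets that separate in this way was not determined, so the separation does not set BIC2 apart. The difference was called at 12pm (limma, adjusted p = 0.00964), 6pm (0.00098) and 12am (0.00567), where 32.8%, 32% and 31% of all probe sets were called higher, and not at 6am (0.256), where 31.4% were. At 12am none of the 6 small polysomal and non-polysomal arrays reached 5 for BIC2 and 1 held the repeated value 2.62, so that difference is one against values near the bottom of the scale, as is that of 6am, and BIC2 passed the filter through 12pm and 6pm. The call at 6pm held without each array and each replicate number. The call at 12pm was lost without replicate 2 (1.12, adjusted p = 0.064) or without replicate 3 of the 12pm non-polysomal group (0.87, adjusted p = 0.0603). The call at 12am was lost without replicate 1 (0.99), without replicate 1 of the 12am large polysomal group (0.88) or without replicate 3 of the 12am non-polysomal group (0.68), and in a fit of the 12am arrays of those fractions alone (adjusted p = 0.0783).

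The loading of HYH in extracts 1, 2 and 3 was -0.39, -0.56 and -0.48 at 6am, -0.86, -0.15 and 0.33 at 12pm, -0.25, -0.23 and -0.15 at 6pm, and 0.17, -0.28 and 0.30 at 12am. All extracts of 6am and 6pm were below 0, and those of 12pm and 12am lay on both sides of it. The means were -0.48 ± 0.09 at 6am, -0.23 ± 0.60 at 12pm, -0.21 ± 0.05 at 6pm and 0.06 ± 0.30 at 12am (SD, n = 3 extracts). Large polysomal arrays overlapped with non-polysomal ones at all 4 times, and no time was called (adjusted p between 0.23 and 0.881). With the extracts as fixed blocks the 6am difference was called lower (adjusted p = 0.0318), as were 29.7% of all probe sets in that fit. With the extracts as a random block it was not called (adjusted p = 0.0808). In all 12 extracts the loading of BIC2 was above that of HYH, a difference that was not tested. At 6am and 12am the loading of BIC2 includes values near the lower end of the scale.

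**Figure D4:**
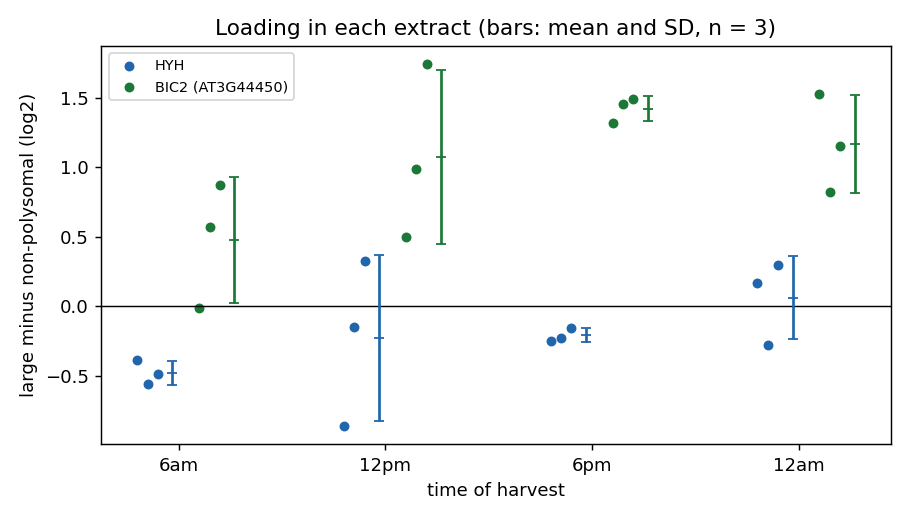
Loading (large polysomal minus non-polysomal log2 value within an extract) of HYH (blue) and BIC2 (green) at each time, with points for the 3 extracts and bars for their mean and SD. The loading of BIC2 is above that of HYH in all 12 extracts, and only 1 BIC2 extract, of 6am, is below 0. At 6am and 12am the loading of BIC2 includes values near the lower end of the scale.

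Whether the loading itself changed over the day was tested as the interaction of time and fraction. It was not called for BIC2 (moderated F test of limma, adjusted p = 0.49) or HYH (adjusted p = 0.829), while 12.7% of all probe sets were called. For BIC2 the loadings of 6am and 12am include values near the lower end of the scale. The test therefore cannot show that the loading of BIC2 stayed the same. The largest difference between consecutive times was that of 6am minus 12am for both genes, -0.69 ± 0.50 for BIC2 and -0.54 ± 0.47 for HYH (SE), neither called (adjusted p = 0.41 and 0.508), where 8.5% of probe sets were. The mean of 12pm and 6pm minus the mean of 12am and 6am was 0.43 ± 0.35 for BIC2 and -0.01 ± 0.33 for HYH (adjusted p = 0.536 and 0.991), where 5.47% were called. With the 12 extracts as fixed blocks the SE of the 6am minus 12am difference was 0.43 for BIC2 and 0.27 for HYH, and these comparisons were not called either (adjusted p = 0.253 and 0.152 for 6am minus 12am).

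Of the rest of the light-signalling pathway little is named in the annotation used here. Of 22810 probe sets 8794 have no name in it, so genes without a named probe set may still be measured on the array. Lists of 14 photoreceptors and 13 light-induced target genes had 0 named members. Of 13 negative regulators 1 was measured, of 32 transcription factors and partners 1, and of 7 genes of growth in darkness and shade 1. The negative regulator is BIC1, which the annotation carries as locus AT3G52740 only. Its product acts on cryptochromes like that of BIC2.

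BIC1, like BIC2, was low at 6am and 12am, with a level of 5.43 ± 0.19 at 6am, 9.69 ± 0.13 at 12pm, 9.62 ± 0.41 at 6pm and 6.07 ± 0.20 at 12am (SD, n = 3 extracts). The level was higher at 12pm and 6pm than at 12am and 6am by 3.90 ± 0.10 (SE, limma, adjusted p = 7.59e-24), where 36.1% of all probe sets were called higher, and at 6am it was lower than at 12am (-0.63 ± 0.15, adjusted p = 0.000754), where 23.4% were called lower. The value 5.65 was identical on the 6am large polysomal array of replicate 3 and the 12am small polysomal array of replicate 2. At 12am the small polysomal and non-polysomal arrays of replicate 3 both held 5.60. The size of the 6am minus 12am step of BIC1 is therefore uncertain. The 6pm minus 12pm difference was -0.07 ± 0.15 and was not called (adjusted p = 0.742). This fit takes the fractions of an extract as separate samples, although they deviated together. The SE and adjusted p of level differences, here and for the genes below, therefore tend to be too small. The shares of probe sets called for levels rest on the same fit. On large polysomes BIC1 was at 10.21, 9.79 and 10.16 at 12pm, against 9.80, 10.01 and 9.47 in the non-polysomal fraction, and these overlapped. Its loading over the 4 times, 0.31 ± 0.13 (adjusted p = 0.0296), was called but not with all probe sets kept. Unlike BIC2 it was lower in the small polysomal than in the non-polysomal fraction (-0.39 ± 0.13, adjusted p = 0.00795), where 31.6% were called lower. The difference between the 2 genes was not tested.

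FHL, which helps to bring phytochrome A into the nucleus, ran the other way, with a level of 8.02 ± 0.51 at 6am, 4.83 ± 0.10 at 12pm, 4.94 ± 0.20 at 6pm and 6.80 ± 0.77 at 12am. Its level was lower at 12pm and 6pm than at 12am and 6am (-2.53 ± 0.16, adjusted p = 4.82e-15), where 36.5% of probe sets were called lower, and it was lower on large polysomes (-1.69 ± 0.19, adjusted p = 3.01e-09). At 12pm and 6pm FHL lay between 3.65 and 4.31 on large polysomes, below the filter value, so the size of both differences is uncertain. IAA29, an auxin response gene of dark and shade growth, was at 10.61 ± 0.09, 6.50 ± 0.22, 6.69 ± 0.17 and 9.40 ± 0.40 at the 4 times in the same order, and its level fell likewise (-3.41 ± 0.09, adjusted p = 1.6e-23). It too was lower on large polysomes (-1.10 ± 0.12, adjusted p = 6.22e-10). With equal spike-in signal both FHL and IAA29 were called higher on large polysomes, so the direction is relative to the array average.

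Of 5 genes named in RefSeq for light or a photoreceptor, FHL among them, 2 rose and 3 fell at 12pm and 6pm relative to 12am and 6am, with a median of -0.34 against -0.01 over all probe sets, of which 36.1% rose and 36.5% fell. AFR, an F-box gene named for an attenuated far-red response, rose by 2.59 ± 0.14 (adjusted p = 9.66e-17), with levels of 4.81, 7.30, 6.44 and 3.75 at 6am, 12pm, 6pm and 12am. Its levels at 6am and 12am were below the filter value, so the size of this rise is uncertain. BLUE LIGHT SIGNALING1 (AT4G14480), a kinase in stomatal opening, rose by 0.67 ± 0.13 (adjusted p = 3.23e-05) and, like HYH, was lowest at 12am, with levels of 6.65, 6.81, 6.88 and 5.71. CSA1, named for constitutive shade avoidance, fell (-0.91 ± 0.08, adjusted p = 2.72e-11), and so did PHYTOCHROME-DEPENDENT LATE-FLOWERING (AT1G72390, -0.34 ± 0.08, adjusted p = 0.000583). On large polysomes 2 of the 5 were called higher, AT1G72390 (1.68 ± 0.10) and AT4G14480 (0.86 ± 0.16), and FHL was called lower, against 42.3% higher and 37.8% lower over all probe sets, so these shares are near the background.

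Among the bZIP genes, the family of HYH, 22 others were named and 13 passed the filter. Of these 3 rose and 9 fell at 12pm and 6pm relative to 12am and 6am, with a median of -0.28, against 36.1% higher and 36.5% lower over all probe sets. With equal spike-in signal, which shifted the median of all probe sets to 0.38, 3 were higher and 2 lower. BZIP24 rose by 1.56 ± 0.13 (adjusted p = 3.76e-12), but its level at 6am was 4.36, below the filter value, so the size of the rise is uncertain. EEL, a bZIP factor of embryo gene expression (-1.44 ± 0.10, adjusted p = 8.71e-14), and BZIP61 (-1.21 ± 0.11, adjusted p = 5.96e-11) fell the most. At 6am relative to 12am 6 of the 13 were called higher and 1 lower, the largest rise being that of EEL at 1.06 ± 0.14 (adjusted p = 4.55e-07), against the HYH difference of 3.22. Over all probe sets 25.1% were called higher in that step.

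On large polysomes 8 of the 13 bZIP genes were called higher and 3 were called lower, and the median loading was 0.73, against 42.3% higher, 37.8% lower and a median of 0.05 over all probe sets. BZIP61 (1.55 ± 0.14, adjusted p = 1.59e-11) and BZIP28 (1.30 ± 0.11, adjusted p = 1.1e-11), which encodes a sensor of stress in the endoplasmic reticulum, were the highest, and EEL the lowest (-1.48 ± 0.12, adjusted p = 3.46e-12). BZIP28 had a mean of only 4.83 over all arrays, below the filter value, so the size of its difference is uncertain. HYH, at -0.21, lay between BZIP53 (0.05 ± 0.08, adjusted p = 0.555) and BZIP24 (-0.54 ± 0.16, adjusted p = 0.00245). With equal spike-in signal all 13 were called higher on large polysomes.

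**Figure D5:**
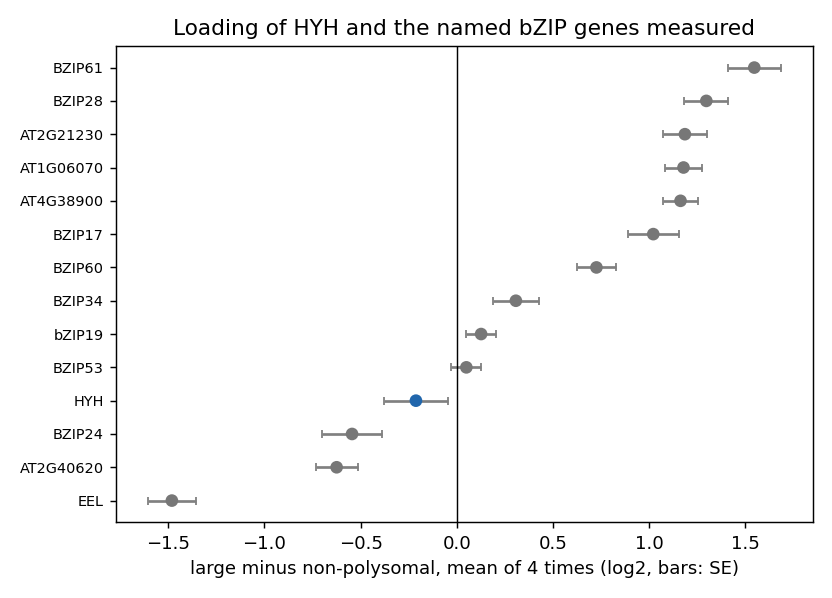
Loading (large polysomal minus non-polysomal log2 value, mean of the 4 times) of HYH (blue) and the 13 other named bZIP genes measured (grey), with SE of the moderated fit. Values run from -1.48 in EEL to 1.55 in BZIP61, and HYH at -0.21 lies between BZIP53 and BZIP24.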

How the data were processed

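The authors deposited log2 expression values per probe set, background-corrected, normalized and summarised with GCRMA in R 3.1 with affy 1.42.3, per the submitters' processing notes. Other settings are not given in the sources used here. Per the labels, RNA was labelled as cRNA from oligo(dT)-primed cDNA. Of 22810 probe sets 64 controls were left out, and the 12635 that reached a log2 value of 5 on at least 3 arrays were tested. Of these 6824 name 1 gene, 263 several and 5548 none in the annotation used. Of 13513 probe sets that name 1 gene, 13436 matched RefSeq. The 12 group means were fitted by limma 3.58.1 (R 4.3.3), with 24 residual degrees of freedom. A call is an adjusted p under 0.05 after Benjamini and Hochberg over all probe sets tested. SE values are of the moderated fit, which takes all arrays as separate samples, so those of level differences tend to be too small. Plots were made in Python 3.11.15 (matplotlib 3.10.9). Fits were run on simulated data with independent noise on each array, which does not cover the correlation between fractions of an extract.

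Deviations from the group means correlated above 0.1 in each of 36 pairs of arrays that share time and replicate number (median r = 0.42), so the numbers were taken to mark extracts and the 12 extracts were used as blocks in alternatives (consensus correlation 0.355). Arrays of the same fraction and number at different times also correlated, above 0.1 in 33 of 54 pairs (median r = 0.15). With other numbers the median was -0.05. Extracts with the same number may therefore not be independent between times. Whether replicates are separate cultures is not stated in the labels, and the p-values then rest on a spread between samples that may be technical. The number of arrays limits the precision.

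Members, gene lists and tests were chosen with earlier results of these data known. The lists of bZIP genes and of genes named for light were added after the annotation was seen. Named genes are the members, the 5 most correlated named genes of each, all measured members of lists of up to 6 and the extremes of longer ones, of which a part is given. BZIP28 and BZIP53 were named after their values were seen. Alternatives were other filters, normalizations, blocks, variance models and definitions of loading, 1 probe set per gene, only the arrays of a contrast, and leaving out arrays. The level of CCA1 is not analysed here, and no sequences were used here.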

Additional observations from a re-analysis of the deposited data

How the results depend on the processing

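The loading of BIC2 over the 4 times and at 6pm was called in every alternative run, with 0.75 to 3.37 and 1.02 to 3.86. Precision is limited by 3 arrays per group and, for BIC2 at 6am and 12am, by values near the lower end of the scale. The test of loading over the times was called for neither gene under any alternative. The cause of the changes below was not tested.

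For BIC2, small polysomal minus non-polysomal RNA was not called with no filter (0.46, adjusted p = 0.0575), quantile normalization (0.36), cyclic loess (0.35) or median centring (0.37). Loading at 12am was not called from its own arrays alone (1.17) or as the mean of large and small minus non-polysomal (0.67). Loading at 12pm was not called as large minus the mean of small and non-polysomal (0.70), and on that definition the 12am minus 6pm change of loading was 0.068 and not -0.25. With equal spike-in signal loading at 6am was called (2.97).

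For HYH, the replicate block with extracts fixed called the loading over the 4 times (-0.21) and at 6am (-0.48); the block on extracts changed no other call of either gene, and that on replicate number changed none. Equal spike-in signal turned the differences positive: 2.12 (large minus non-polysomal), 0.81 (small minus non-polysomal), 1.30 (large minus small), 2.02 at 6am, 1.68 at 12pm and 2.23 at 6pm. All of these were called higher, and so was 12am (2.54). In the first of them 97.5% of all probe sets were called higher. The 12pm minus 6am change of loading became -0.34 and the 6pm minus 12pm change of level 0.13. Among values not called, loading at 12am turned with quantile normalization (-0.066), median centring (-0.056) and large minus the mean of the others (-0.13). Light minus dark, here and below, is the mean of 12pm and 6pm minus the mean of 12am and 6am, although 6am is the time of lights on. Light minus dark loading turned with quantile normalization (0.089), cyclic loess (0.038), median centring (0.018) and large minus the mean of the others (0.073), 12am minus 6pm with that same definition (-0.037), 6pm minus 12pm with the mean of large and small (-0.0085), and large minus small from the 12pm and 6pm arrays alone (0.0014).

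Leaving out a replicate number or an array gave these ranges. For HYH they were -0.32 to 0.016 (small minus non-polysomal), -0.17 to 0.0057 (large minus small), -0.51 to 0.089 (loading at 12pm), -0.39 to 0.57 (12am), -0.26 to 0.21 (light minus dark), -0.034 to 0.61 (12pm minus 6am), -0.28 to 0.27 (6pm minus 12pm) and -0.18 to 0.78 (12am minus 6pm). For BIC2 they were 0.091 to 0.68 (small minus non-polysomal), 0.45 to 0.81 (large minus small), 0.74 to 1.37 (12pm), 0.68 to 1.67 (12am) and -0.74 to 0.24 (12am minus 6pm).

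Counts of probe sets called moved with equal spike-in signal to 12249 (large minus small), 11991 (6am), 11751 (6pm) and 11980 (12am), from 7010, 7200, 7733 and 7568, and to 7 for loading in light minus dark and 7 for loading over the times, from 691 and 1599. Those last 2 were 1116 and 2635 with replicate number as a block, 2060 and 4499 with extracts as fixed and 2010 and 4385 as random blocks, and ranged from 17 to 1551 and 25 to 2211 when arrays or replicates were left out. With 1 probe set per named gene, which tests fewer probe sets, the counts were 5461, 4653 and 3813 for the 3 comparisons of fractions, 3914, 4222, 4136 and 4109 for loading at the 4 times, 390 for light minus dark and 907 over the times.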

Other observations

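A level at 12am that was at least 2 log2 units below each of the other 3 times was found for 6 of 12635 probe sets, of which 3 name 1 gene: HYH (by 3.22), AT5G15950 (by 2.88) and AT1G47400 (by 2.69). Levels at 12pm and 6pm that were both at least 4 log2 units above those of 6am and 12am were found for 4 probe sets, of which 3 name 1 gene: AT1G60590 (by 4.63), AT3G44450, which is BIC2 (by 4.25), and AT1G10640 (by 4.203). These counts use the levels for which the 2 genes were chosen, with margins of 2 and 4 set with the values of the genes known, so they describe the size of the differences and say nothing of how rare either course is.

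At 12am the replicates differed in opposite order for HYH and for FHL. HYH had its highest level in replicate 2 and its lowest in replicate 3 on all 3 fractions. FHL was lowest in replicate 2 and highest in replicate 3 on all 3 fractions, with 5.90, 5.44 and 7.13 on large polysomes and 7.63, 6.99 and 8.43 in the non-polysomal fraction in replicates 1, 2 and 3. IAA29 was also highest in replicate 3 at 12am, with 8.79, 8.45 and 9.32 on large polysomes. The level of BIC2 at 12am had the order of HYH, with 4.24, 4.41 and 3.48, but its small polysomal values (3.55, 3.72 and 4.03) did not. The fractions of an extract deviated together, so the same order in each fraction is not repeated support. These orders rest on 3 extracts, were picked from the values and were not tested. The share of all probe sets with either order was not determined.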
